A study of Mus musculus with 8 samples.

Results

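Wnt signalling genes were followed through 8 RNA-seq libraries of mouse haemogenic endothelium, the endothelium from which the first blood cells arise. The set was defined by gene name alone and covers secreted Wnt ligands, the proteins that release them, Frizzled and LRP receptors, R-spondins and their Lgr receptors, extracellular antagonists, the β-catenin destruction complex and the TCF/LEF transcription factors. It holds 62 of the 41128 genes in the count table, and 45 of them had enough counts to be tested.

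Wnt ligands are secreted lipid-modified proteins that bind a Frizzled receptor together with LRP5 or LRP6. Binding halts the destruction complex of Axin and APC, so that β-catenin accumulates and acts with TCF/LEF factors on target genes, among them Axin2. R-spondins strengthen the signal by acting through Lgr receptors on the ligases ZNRF3 and RNF43, which otherwise remove Frizzled from the cell surface, and DKK and SFRP proteins dampen it outside the cell. In the embryo the pathway acts in mesoderm, in endothelium and in the emergence of blood.

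The cells were differentiated from C57BL/6 mouse embryonic stem (ES) cells of a line labelled Hdac1lox/lox and a line labelled Hdac2lox/lox, here called the Hdac1 line and the Hdac2 line. HDAC1 and HDAC2 are closely related enzymes that remove acetyl groups from histones. Both lines were given 4-hydroxytamoxifen (4OHT), commonly used to activate a tamoxifen-dependent Cre, or its solvent ethanol (EtOH), and each of the 4 groups has 2 libraries. The labels name no Cre driver, clone number or duration of treatment, and none says that replicates were separate cultures, so p-values measure the spread between these libraries, which may be technical. The 4 groups were 4OHT and EtOH libraries of the Hdac1 line, and 4OHT and EtOH libraries of the Hdac2 line.

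Total counts were 10215792 to 19552380 per library. Levels are given as CPM, the usual depth-scaled counts, after TMM scaling of the libraries, and between genes as RPKM, which is CPM per kilobase of exon. Hdac1 had 6.99 and 7.12 CPM in the 4OHT libraries of the Hdac1 line, against 5.78 and 5.60 CPM in its EtOH libraries, and a near-identical copy, Gm10093, stood at a mean of 126 CPM, so Hdac1 counts could not check the labels. Hdac2 had 149 and 149 CPM in the 4OHT libraries of the Hdac2 line, against 165 and 151 CPM in its EtOH libraries. The groups are therefore named as labelled, and no comparison is read as the loss of a deacetylase.

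The cell type label was set against 12 genes of haemogenic endothelium, all of which had enough counts to be tested. Their summed level was 4791 to 6313 CPM in the 4OHT and 4381 to 6011 CPM in the EtOH libraries of the Hdac1 line, and 6187 to 8024 CPM in the 4OHT and 3226 to 3463 CPM in the EtOH libraries of the Hdac2 line. Endothelial Cdh5 had 2342 and 3026 CPM with 4OHT and 786 and 745 CPM with EtOH in the Hdac2 line, and Runx1, the factor that drives blood emergence, had 65.8 and 80.4 CPM with 4OHT and 84.9 and 101 CPM with EtOH. In these bulk libraries, a change in how many cells of a type were present and a change in RNA per cell cannot be told apart.

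The libraries of the Hdac1 line did not pair with their labels in the usual way. Over the 14179 genes tested, log CPM of its EtOH replicate 2 correlated best with 4OHT replicate 1 (0.9869), and EtOH replicate 1 with 4OHT replicate 2 (0.9789). Its 4OHT libraries differed from each other more than those of the Hdac2 line did, with a chi-square per degree of freedom of 44.3 against 15.8, and its EtOH libraries likewise, with 99.9 against 12.4. In the Hdac2 line, EtOH replicate 2 held 4.58 CPM of the Y-linked gene Ddx3y, against at most 0.889 CPM in the other libraries of that line and 25.8 to 45.7 CPM in the Hdac1 line. The labels do not settle whether replicate numbers were crossed or treatment labels exchanged in the Hdac1 line. The groups were kept as labelled, and every comparison that uses the Hdac1 line rests on those labels. Results are given with and without these libraries below.

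Measured per kilobase, Ctnnb1, which encodes β-catenin, was the highest of the 45 genes at a mean of 222 RPKM over the 8 libraries. Rspo3 followed at 36.7 RPKM, then Fzd10 at 25.1 RPKM, Axin1 at 20.5 RPKM, Wls at 19.6 RPKM and Lrp5 at 17.6 RPKM. Below Ctnnb1 the ranges of these genes over the 8 libraries overlapped, so their order is not firm. Of the 45 genes, 11 averaged at least 10 RPKM, 21 lay between 1 and 10 RPKM, and 13 were under 1 RPKM.

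**Figure D1:**
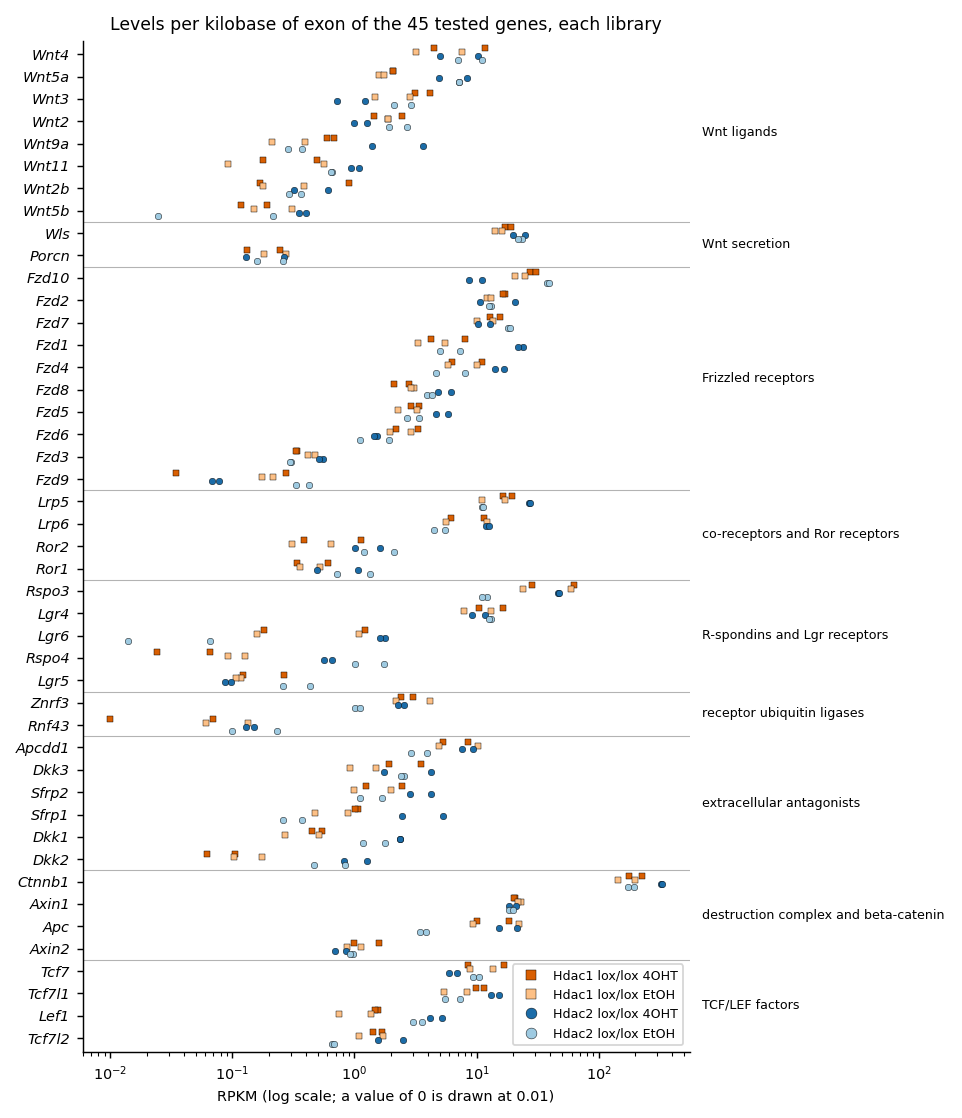
RPKM of the 45 tested genes in each library, grouped by role, on a log axis; orange squares are the Hdac1 line and blue circles the Hdac2 line, darker with 4OHT and lighter with EtOH. Ctnnb1 lies far above the other genes in all 8 libraries, and 13 genes average under 1 RPKM.

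In the Hdac2 line, 20 of the 45 genes differed between 4OHT and EtOH libraries by edgeR's quasi-likelihood test at a Benjamini-Hochberg adjusted p under 0.05. The share was 44.4%, against 36.1% of all genes tested. The 16 that rose were Wnt9a, Fzd1, Fzd3, Fzd4, Fzd5, Lrp5, Lrp6, Lgr6, Rspo3, Znrf3, Sfrp1, Apcdd1, Apc, Ctnnb1, Tcf7l1 and Tcf7l2, which is 35.6% of the genes, against 18.9% of all genes. The 4 that fell were Wnt3, Fzd7, Fzd10 and Lgr5, which is 8.89% of the genes, against 17.2% of all genes. The median log2 fold change was 0.51 over the 45 genes and -0.02 over all genes tested. With 4OHT, 22 of the 45 genes were above both EtOH libraries and 10 below both, against 38.6% and 39.7% of all genes, so that 78.3% of all genes also showed no overlap.

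All 20 kept their direction, each at an unadjusted p under 0.05, when replicate number was added as a block, but none then passed the adjusted threshold in edgeR. Without EtOH replicate 2 of the Hdac2 line 0 of them passed in edgeR, although all 20 again ran the same way with an unadjusted p under 0.05, and without EtOH replicate 1 only Fzd10 did. Without 4OHT replicate 1 the 5 that passed were Fzd10, Sfrp1, Apc, Lrp5 and Tcf7l2, and without 4OHT replicate 2 the 3 that passed were Fzd10, Sfrp1 and Wnt9a. In these fits the single library of the group takes its spread from the remaining libraries, among them the more variable Hdac1 line.

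Markers of other cell types moved in the same libraries, where 18.9% of all genes rose and 17.2% fell. Of 10 erythroid genes tested, 7 fell and none rose in the Hdac2 line, and their summed level was 158 to 246 CPM with 4OHT, against 1359.6 to 1431 CPM with EtOH. Among 10 genes of smooth muscle and mesenchyme 4 rose, with sums of 4322 to 6518 CPM with 4OHT, against 1572 to 2206 CPM with EtOH. The erythroid sum in the Hdac1 line was 151 to 378 CPM with 4OHT and 292 to 757 CPM with EtOH, and the smooth muscle sum 2583 to 2621 CPM with 4OHT and 1650.2 to 1974 CPM with EtOH. Of 9 myeloid genes, 5 rose and 1 fell, with sums of 57.7 to 69.0 CPM with 4OHT, against 48.4 to 54.4 CPM with EtOH. Of the 12 haemogenic endothelium genes, 4 rose (Eng, Cdh5, Pecam1 and Kdr) and 3 fell (Tal1, Gfi1b and Itga2b). None of these markers was at 0 in all libraries. The part of these cell types in the Wnt gene changes was not tested.

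**Figure D2:**
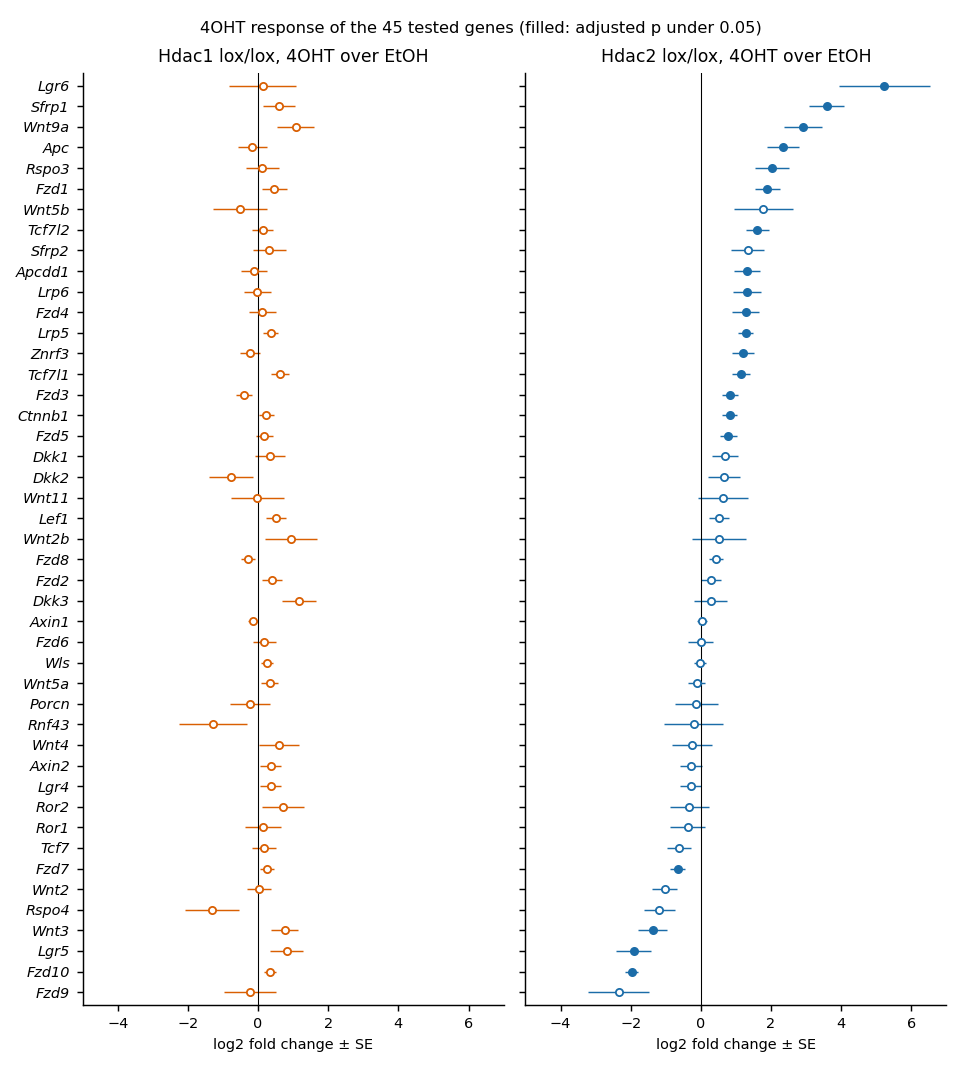
Log2 fold change of 4OHT over EtOH with its SE for the 45 tested genes, in the Hdac1 line on the left and the Hdac2 line on the right, ordered by the Hdac2 line; filled points have an adjusted p under 0.05. In the Hdac2 line 20 points are filled, from Lgr6 at 5.23 to Fzd10 at -1.97, and in the Hdac1 line none is.

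Upstream sequence was looked at because many of these genes moved together in the Hdac2 line. RefSeq promoters (GRCm38.p6) matched 39 of the 62 genes, with 49 promoters, and the 250 bases before each annotated start were read. The motif CTTTGAT, the core that TCF/LEF factors recognise, was searched on both strands and was in 2 of the 49 (4.08%), against 3.21% of all 32851 promoters. Its variant CTTTGTT, which cannot match the same bases, was in 3 (6.12%), against 5.03%. The windows were GC rich, with a median of 66.8% GC and 20 CG dinucleotides, against 52.4% and 6 over all promoters. The 10 windows of genes that rose had a median of 73.2% GC and 29.5 CG, and the 3 windows of genes that fell had 68% GC and 22 CG. The 26 windows of tested genes that were not called had 63.6% GC and 14.5 CG, and the 10 of untested genes 69.2% GC and 22 CG. Some genes have more than 1 window, and those of Ctnnb1 overlap, as do some of Lef1. Of the 10 windows of genes that rose, Ctnnb1 and Tcf7l2 each gave more than 1, and several genes that rose had none. Differences between these sets were not tested. A motif match describes these letters only and is no evidence that a factor binds. The sequences of 3 genes that rose (Lgr6, with the largest log2 fold change, Fzd4 and Tcf7l2) and of Fzd7, which fell and holds a CTTTGTT match on the reverse strand, are shown 5′ to 3′ on the gene's strand with every CG in capitals. The other CTTTGTT matches were in Dkk1 and in the second annotated promoter of Tcf7l2, at chr19:55895071-55895320 (plus strand, 40.8% GC, 7 CG), which is not shown. The windows shown lie at chr1:135105277-135105526 (minus strand, 16 CG), chr7:89404116-89404365 (plus strand, 25 CG), chr19:55741560-55741809 (plus strand, 30 CG) and chr1:59481897-59482146 (plus strand, 17 CG).
Lgr6: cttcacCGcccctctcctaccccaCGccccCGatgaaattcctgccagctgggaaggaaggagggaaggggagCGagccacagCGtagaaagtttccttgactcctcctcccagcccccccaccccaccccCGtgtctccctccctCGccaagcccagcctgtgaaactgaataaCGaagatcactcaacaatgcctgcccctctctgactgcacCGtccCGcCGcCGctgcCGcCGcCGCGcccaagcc
Fzd4: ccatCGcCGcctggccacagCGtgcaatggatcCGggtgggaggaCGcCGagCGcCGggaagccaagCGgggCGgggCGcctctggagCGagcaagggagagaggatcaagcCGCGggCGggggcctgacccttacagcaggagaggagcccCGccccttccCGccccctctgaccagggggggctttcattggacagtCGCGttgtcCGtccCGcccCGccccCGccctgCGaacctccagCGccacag
Tcf7l2: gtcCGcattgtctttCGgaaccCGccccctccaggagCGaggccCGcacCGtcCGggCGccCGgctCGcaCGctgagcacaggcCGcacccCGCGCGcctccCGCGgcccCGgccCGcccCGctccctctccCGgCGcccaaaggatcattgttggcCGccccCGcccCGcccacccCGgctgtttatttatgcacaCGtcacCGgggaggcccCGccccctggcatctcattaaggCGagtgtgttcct
Fzd7: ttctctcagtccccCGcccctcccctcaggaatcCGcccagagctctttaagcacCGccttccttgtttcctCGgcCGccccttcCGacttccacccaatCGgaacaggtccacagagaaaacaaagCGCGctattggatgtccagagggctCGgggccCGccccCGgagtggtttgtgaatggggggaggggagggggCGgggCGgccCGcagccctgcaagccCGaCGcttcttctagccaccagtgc

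Of the 19 Wnt ligand genes, 8 had enough counts to be tested, 1 rose and 1 fell in the Hdac2 line. Wnt9a (chr11:59306928-59333552, mm10), which in zebrafish is needed for the expansion of blood stem cell precursors, had 12.03 and 4.62 CPM in the 4OHT libraries of the Hdac2 line, against 1.23 and 0.955 CPM in its EtOH libraries. Its log2 fold change was 2.91 ± 0.54 (SE, 2 libraries a group; adjusted p = 0.012). Both 4OHT libraries lay above both EtOH libraries, although they differed from each other. In Hdac1 line libraries, Wnt9a had 2.28 and 1.99 CPM with 4OHT, against 0.709 and 1.30 CPM with EtOH, again without overlap, but the log2 fold change of 1.07 ± 0.54 did not pass the test (adjusted p = 0.77).

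Wnt3 (chr11:103774150-103817957), a canonical ligand required for gastrulation in the mouse, had 3.72 and 2.22 CPM with 4OHT, against 9.01 and 6.49 CPM with EtOH in the Hdac2 line. It fell there by 1.38 on the log2 scale (SE 0.42, adjusted p = 0.037). The Hdac1 line had Wnt3 at 12.9 and 9.68 CPM with 4OHT, against 4.53 and 8.75 CPM with EtOH, with both 4OHT libraries above both EtOH libraries. Wnt5a (chr14:28504750-28527447), the main ligand of β-catenin-independent signalling, had 65.0 and 38.3 CPM with 4OHT, against 55.8 and 56.6 CPM with EtOH in the Hdac2 line, where the groups overlapped. In the Hdac1 line, its level was lower in all 4 libraries, at 16.3 and 16.3 CPM with 4OHT, against 12.3 and 13.6 CPM with EtOH.

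The other tested ligands did not pass the test in either line. Wnt4 had the highest mean of all ligands, at 7.58 RPKM, and 42.9 and 21.2 CPM with 4OHT, against 46.7 and 29.3 CPM with EtOH in the Hdac2 line. Wnt2 had a log2 fold change of -1.03 ± 0.36 (adjusted p = 0.057), with both 4OHT libraries below both EtOH libraries. The values were 0.51 ± 0.78 for Wnt2b, 0.64 ± 0.71 for Wnt11 and 1.78 ± 0.83 for Wnt5b. Wnt5b shares sequence on the opposite strand with Fbxl14, a gene at 76.3 CPM, so its low counts are uncertain. The 11 untested ligands had at most 54 counts over all 8 libraries (Wnt7b), and Wnt1, Wnt3a and Wnt8b had 0, which allows up to 0.15 to 0.287 CPM per library at a floor of 3 counts. The others under the threshold were Wnt6, Wnt7a, Wnt8a, Wnt9b, Wnt10a, Wnt10b and Wnt16.

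Among the ligands, Wnt9a took 13.5 and 9.27% of the summed RPKM in the 4OHT libraries of the Hdac2 line, against 1.45 and 1.44% in its EtOH libraries. The family sum was 26.8 and 15.0 RPKM with 4OHT and 25.5 and 19.9 RPKM with EtOH, ranges that overlapped. Wls, which carries Wnt proteins to the cell surface, did not pass the test in the Hdac2 line, with 219 and 173 CPM with 4OHT, against 207 and 193 CPM with EtOH and a log2 fold change of -0.03 ± 0.17 (95% interval -0.43 to 0.38). Porcn, the acyltransferase that lipid-modifies Wnts, stayed under 1 CPM in all 8 libraries.

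All 10 Frizzled receptor genes were tested, and in the Hdac2 line 4 rose and 2 fell. Fzd10 (chr5:128600844-128604093) had 35.9 and 28.2 CPM in the 4OHT libraries of the Hdac2 line, against 122 and 129 CPM in its EtOH libraries. That is a log2 fold change of -1.97 ± 0.19 (adjusted p = 0.0041), the smallest adjusted p of the 45 genes, and the groups lay far apart. Fzd10 in the Hdac1 line had 88.4 and 100.1 CPM with 4OHT, against 81.7 and 67.6 CPM with EtOH, with both 4OHT libraries above both EtOH libraries. Fzd7 (chr1:59482424-59486955), a receptor of early embryonic and ES cells, had 58.0 and 47.0 CPM with 4OHT, against 81.8 and 84.8 CPM with EtOH in the Hdac2 line and fell by 0.67 on the log2 scale (SE 0.20, adjusted p = 0.038). In Hdac1 line libraries, Fzd7 had 58.2 and 71.2 CPM with 4OHT, against 61.5 and 46.1 CPM with EtOH, where the groups overlapped.

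Fzd1 (chr5:4753873-4758035) had 100.1 and 92.3 CPM with 4OHT, against 30.6 and 20.9 CPM with EtOH in the Hdac2 line, a log2 fold change of 1.90 ± 0.36 (adjusted p = 0.012). The Hdac1 line's values were 33.8 and 17.7 CPM with 4OHT, against 14.0 and 23.2 CPM with EtOH. Fzd4 (chr7:89404366-89410110), the endothelial receptor for the ligand Norrin, had 95.9 and 112 CPM with 4OHT, against 31.4 and 54.5 CPM with EtOH in the Hdac2 line, a log2 fold change of 1.28 ± 0.39 (adjusted p = 0.037). Both rose in the Hdac2 line with no overlap between groups. The Hdac1 line had Fzd4 at 74.7 and 42.1 CPM with 4OHT, against 39.3 and 67.9 CPM with EtOH. For both genes EtOH replicate 2 and 4OHT replicate 1 were the higher library of each pair in the Hdac1 line.

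Fzd5 (chr1:64730558-64737751), a receptor needed for yolk sac vessels in the mouse, had 32.5 and 40.3 CPM with 4OHT, against 18.7 and 23.6 CPM with EtOH in the Hdac2 line, a log2 fold change of 0.78 ± 0.24 (adjusted p = 0.037). The Hdac1 line's values were 23.3 and 20.05 CPM with 4OHT, against 15.8 and 22.4 CPM with EtOH. Fzd3 (chr14:65201026-65262463), a receptor of axon guidance and planar polarity, had 7.14 and 6.58 CPM with 4OHT, against 3.89 and 3.82 CPM with EtOH in the Hdac2 line, a log2 fold change of 0.83 ± 0.24 (adjusted p = 0.033). In the Hdac1 line, Fzd3 ran the other way without passing the test, at 4.32 and 4.27 CPM with 4OHT, against 5.29 and 6.10 CPM with EtOH. Fzd3 has a long transcript, and its log2 fold change in the Hdac2 line was -0.044 once the trend with exon length was removed, an alternative chosen after the data were seen.

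The 4 Frizzled genes that did not pass in the Hdac2 line were Fzd2 (0.28 ± 0.28), Fzd6 (-0.003 ± 0.35), Fzd8 (0.43 ± 0.20) and Fzd9 (-2.35 ± 0.86), given as log2 fold change with SE. Fzd9 was under 1 CPM in every library. The summed level of the family was 94.4 and 82.4 RPKM with 4OHT and 89.3 and 94.2 RPKM with EtOH in the Hdac2 line, ranges that overlapped, while its makeup differed. Fzd10 took 11.7 and 10.5% of that sum with 4OHT, against 42.2 and 42.0% with EtOH. Fzd1 took 25.3 and 26.7% with 4OHT, against 8.16 and 5.29% with EtOH, and Fzd4 15.1 and 20.3% with 4OHT, against 5.22 and 8.61% with EtOH. Fzd10 was thus the largest Frizzled transcript by RPKM in the EtOH libraries, and Fzd1 in the 4OHT libraries. In the Hdac1 line, Fzd10 took 31.8 and 37.6% with 4OHT and 36.9 and 29.9% with EtOH, and was the largest in all 4 libraries.

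**Figure D3:**
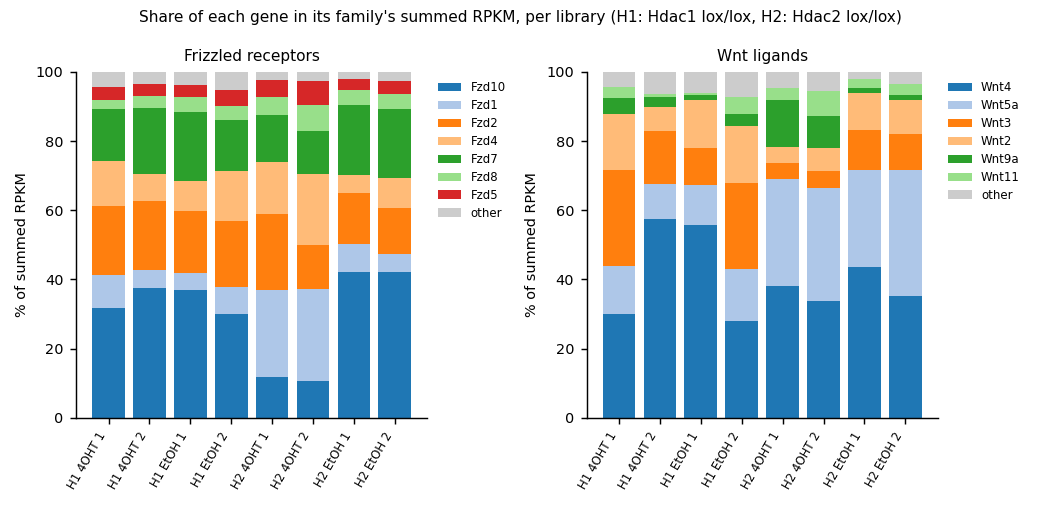
Share of each gene in the summed RPKM of the Frizzled receptors (left) and Wnt ligands (right), 1 bar per library, with genes under 5% in every library drawn together as other. Fzd10 takes 10.5 to 11.7% of the Frizzled sum in the 4OHT libraries of the Hdac2 line, against 42.0 to 42.2% in its EtOH libraries.

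Both LRP co-receptors rose in the Hdac2 line. Lrp5 (chr19:3584828-3686564), whose loss in the mouse impairs retinal vessels, had 261 and 268 CPM with 4OHT, against 109 and 109 CPM with EtOH, a log2 fold change of 1.28 ± 0.22 (adjusted p = 0.01). Lrp6 (chr6:134446476-134566965), the co-receptor on which most embryonic β-catenin signalling depends, had 164 and 172 CPM with 4OHT, against 61.3 and 75.2 CPM with EtOH, a log2 fold change of 1.30 ± 0.40 (adjusted p = 0.039). The pairs of libraries agreed closely for Lrp5 and lay apart for both genes. Lrp5 in the Hdac1 line had 192 and 161 CPM with 4OHT, against 108 and 165 CPM with EtOH. Lrp6 had 157 and 85.0 CPM with 4OHT, against 76.6 and 168 CPM with EtOH there, so that the spread within each treatment exceeded any difference between treatments. The tyrosine kinase receptors Ror1 and Ror2, which bind Wnt5a, had log2 fold changes of -0.37 ± 0.50 and -0.32 ± 0.57 in the Hdac2 line, and neither passed the test.

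Of the R-spondins and Lgr receptors, 5 of 7 were tested, and in the Hdac2 line 2 rose and 1 fell. Rspo3 (chr10:29453109-29535867), an R-spondin needed for vessels of the mouse yolk sac and placenta, had 145 and 147 CPM in the 4OHT libraries of the Hdac2 line, against 37.3 and 34.5 CPM in its EtOH libraries. It rose by a log2 fold change of 2.02 ± 0.48 (adjusted p = 0.019), and the libraries of a group nearly coincided. In Hdac1 line libraries, Rspo3 had 196 and 87.8 CPM with 4OHT, against 74.5 and 185 CPM with EtOH, which again placed 4OHT replicate 1 with EtOH replicate 2.

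Lgr6 (chr1:134983301-135105276), an R-spondin receptor known from skin stem cells, had 12.2 and 11.1 CPM in the 4OHT libraries of the Hdac2 line, against 0.454 and 0.0955 CPM in its EtOH libraries. The EtOH values rest on 7 and 1 counts, and the fitted log2 fold change of 5.23 ± 1.30 (adjusted p = 0.022) therefore depends on how low counts are treated. The Hdac1 line had Lgr6 at 8.32 and 1.25 CPM with 4OHT, against 1.09 and 7.45 CPM with EtOH. Lgr5 (chr10:115450311-115587780), the receptor known from intestinal stem cells and itself a β-catenin target, had 1.009 and 0.889 CPM with 4OHT, against 4.47 and 2.67 CPM with EtOH in the Hdac2 line, a log2 fold change of -1.91 ± 0.49 (adjusted p = 0.023). The close relatives Lgr5 and Lgr6 thus moved in opposite directions in that line. Lgr5 in the Hdac1 line had 1.26 and 2.73 CPM with 4OHT, against 1.20 and 1.10 CPM with EtOH.

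Lgr4, the most abundant Lgr transcript at a mean of 11.8 RPKM, had 69.1 and 54.2 CPM with 4OHT, against 76.7 and 74.5 CPM with EtOH in the Hdac2 line, and its log2 fold change of -0.29 ± 0.30 did not pass the test. Rspo4 (chr2:151842927-151874668) had 1.55 and 1.33 CPM with 4OHT, against 4.15 and 2.39 CPM with EtOH in the Hdac2 line, a log2 fold change of -1.19 ± 0.44 (adjusted p = 0.067). In the Hdac1 line, it was close to the floor of 3 counts, at 0.157 and 0.0569 CPM with 4OHT, against 0.218 and 0.3001 CPM with EtOH. Rspo1 and Rspo2 had 25 and 38 counts in all and were not tested. Rspo3 took 76.6 and 80.3% of the summed RPKM of these 7 genes with 4OHT in the Hdac2 line, against 43.7 and 44.1% with EtOH. In the Hdac1 line its share was 77.8 and 71.5% with 4OHT and 74.5 and 80.4% with EtOH, so only the EtOH libraries of the Hdac2 line stood apart.

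Of the ligases that clear Frizzled from the membrane, Znrf3 rose in the Hdac2 line. Znrf3 (chr11:5276324-5444847) had 18.0 and 19.99 CPM with 4OHT, against 7.97 and 8.69 CPM with EtOH there, a log2 fold change of 1.19 ± 0.31 (adjusted p = 0.025). The Hdac1 line's values were 23.6 and 19.02 CPM with 4OHT, against 17.2 and 32.8 CPM with EtOH, and the groups overlapped. Its partner Rnf43 was at most 1.53 CPM in any library and did not pass the test, and it overlaps 1110028F11Rik on the same strand.

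Of 10 extracellular or membrane antagonists, 6 were tested, 2 rose and none fell in the Hdac2 line. Sfrp1 (chr8:23411502-23449632), a secreted Frizzled-like protein that binds Wnts, had 23.1 and 10.7 CPM in the 4OHT libraries of the Hdac2 line, against 1.62 and 1.15 CPM in its EtOH libraries. Its log2 fold change was 3.58 ± 0.49 (adjusted p = 0.0081), the second largest of the 45 genes, with the groups well apart. In Hdac1 line libraries, Sfrp1 had 4.71 and 4.38 CPM with 4OHT, against 2.07 and 3.901 CPM with EtOH, a log2 fold change of 0.60 ± 0.45 that did not pass the test. Apcdd1 (chr18:62922327-62953195), a membrane inhibitor of Wnt signalling also known from brain endothelium, had 98.4 and 121 CPM with 4OHT, against 37.4 and 50.5 CPM with EtOH in the Hdac2 line, a log2 fold change of 1.32 ± 0.37 (adjusted p = 0.031). The Hdac1 line's values were 111 and 68.8 CPM with 4OHT, against 63.9 and 131 CPM with EtOH, with 4OHT replicate 1 and EtOH replicate 2 high.

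The Dickkopf genes did not pass the test in the Hdac2 line. Dkk1 (chr19:30545863-30549665), an LRP5/6 inhibitor and β-catenin target, had 5.74 and 5.69 CPM with 4OHT, against 2.85 and 4.30 CPM with EtOH there and 1.10 and 1.31 CPM with 4OHT, against 1.26 and 0.650 CPM with EtOH in the Hdac1 line. Dkk2 (chr3:132085292-132180293), which also binds LRP6, had 4.73 and 3.02 CPM with 4OHT, against 3.11 and 1.72 CPM with EtOH in the Hdac2 line and 0.393 and 0.228 CPM with 4OHT, against 0.382 and 0.650 CPM with EtOH in the Hdac1 line. Both were lower in every library of the Hdac1 line than in any of the Hdac2 line. Dkk3, a divergent family member, and Sfrp2 had log2 fold changes of 0.28 ± 0.47 and 1.33 ± 0.48 in the Hdac2 line, with an adjusted p of 0.062 for Sfrp2. Dkk4, Sfrp4, Sfrp5 and Notum had 2 to 24 counts in all and were not tested.

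In the destruction complex, Apc rose in the Hdac2 line and the axins did not pass the test. Apc (chr18:34220924-34322189), the scaffold that helps present β-catenin for degradation, had 248 and 349 CPM in the 4OHT libraries of the Hdac2 line, against 55.6 and 62.6 CPM in its EtOH libraries. Its log2 fold change was 2.34 ± 0.45 (adjusted p = 0.012). The Hdac1 line had Apc at 296 and 162 CPM with 4OHT, against 152 and 359 CPM with EtOH, so EtOH replicate 2 held the highest value of all 8 libraries. Apc has 16116 bases of exon, the longest of the 20 genes, and its log2 fold change in the Hdac2 line was 1.22 once the trend with exon length was removed.

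Ctnnb1 (chr9:120929216-120960507) had 1680.1 and 1715 CPM in the 4OHT libraries of the Hdac2 line, against 1014 and 905 CPM in its EtOH libraries. The log2 fold change was 0.82 ± 0.22 (adjusted p = 0.025), and the groups did not overlap. Ctnnb1 in the Hdac1 line had 1187 and 923 CPM with 4OHT, against 752 and 1036 CPM with EtOH. Axin1 had 70.3 and 80.5 CPM with 4OHT, against 70.9 and 76.1 CPM with EtOH in the Hdac2 line, where the groups overlapped and the 95% interval of its log2 fold change was -0.30 to 0.38. Axin2, the β-catenin target most often used as a read-out of the pathway, had 3.802 and 4.71 CPM with 4OHT, against 5.31 and 5.06 CPM with EtOH in the Hdac2 line. Its log2 fold change there was -0.29 ± 0.32 (adjusted p = 0.48, 95% interval -1.02 to 0.44). In Hdac1 line libraries, Axin2 had 5.496 and 8.71 CPM with 4OHT, against 6.28 and 4.80 CPM with EtOH.

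Of the 4 TCF/LEF genes, Tcf7l1 and Tcf7l2 rose in the Hdac2 line. Tcf7l1 (chr6:72626378-72789254), the family member that acts mainly as a repressor in ES cells, had 52.0 and 60.5 CPM with 4OHT, against 29.0 and 21.5 CPM with EtOH, a log2 fold change of 1.15 ± 0.25 (adjusted p = 0.016). The Hdac1 line's values were 45.1 and 38.8 CPM with 4OHT, against 21.2 and 33.0 CPM with EtOH, without overlap, and its log2 fold change of 0.63 ± 0.25 had an adjusted p of 0.73. Tcf7l2 (chr19:55741810-55933654), the main partner of β-catenin in gut epithelium, had 13.8 and 22.0 CPM with 4OHT, against 5.77 and 5.92 CPM with EtOH in the Hdac2 line, a log2 fold change of 1.61 ± 0.32 (adjusted p = 0.013). The Hdac1 line had Tcf7l2 at 14.7 and 12.5 CPM with 4OHT, against 9.60 and 15.1 CPM with EtOH.

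Lef1 (chr3:131110471-131224356), itself often induced by Wnt signals, had 36.9 and 46.0 CPM with 4OHT, against 31.5 and 26.4 CPM with EtOH in the Hdac2 line, a log2 fold change of 0.52 ± 0.28 (adjusted p = 0.17). Lef1 in the Hdac1 line had 13.7 and 12.9 CPM with 4OHT, against 6.60 and 11.9 CPM with EtOH. Tcf7 had 15.8 and 18.3 CPM with 4OHT, against 27.5 and 24.5 CPM with EtOH in the Hdac2 line, and its log2 fold change of -0.61 ± 0.34 did not pass the test (adjusted p = 0.18). By summed RPKM, Tcf7l1 made up 53.0 and 51.2% of the family with 4OHT, against 33.4 and 29.6% with EtOH. Tcf7 made up 24.0 and 23.1% with 4OHT, against 47.4 and 50.5% with EtOH, so the leading transcript of the family differed between the treatments in that line. In the Hdac1 line the leading transcript differed between the 4OHT replicates, with Tcf7l1 at 49.6 and 33.6% and Tcf7 at 36.5 and 56.6%. With EtOH there, Tcf7 led in both libraries, at 65.3 and 43.3%, against 25.9 and 41.5% for Tcf7l1.

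**Figure D4:**
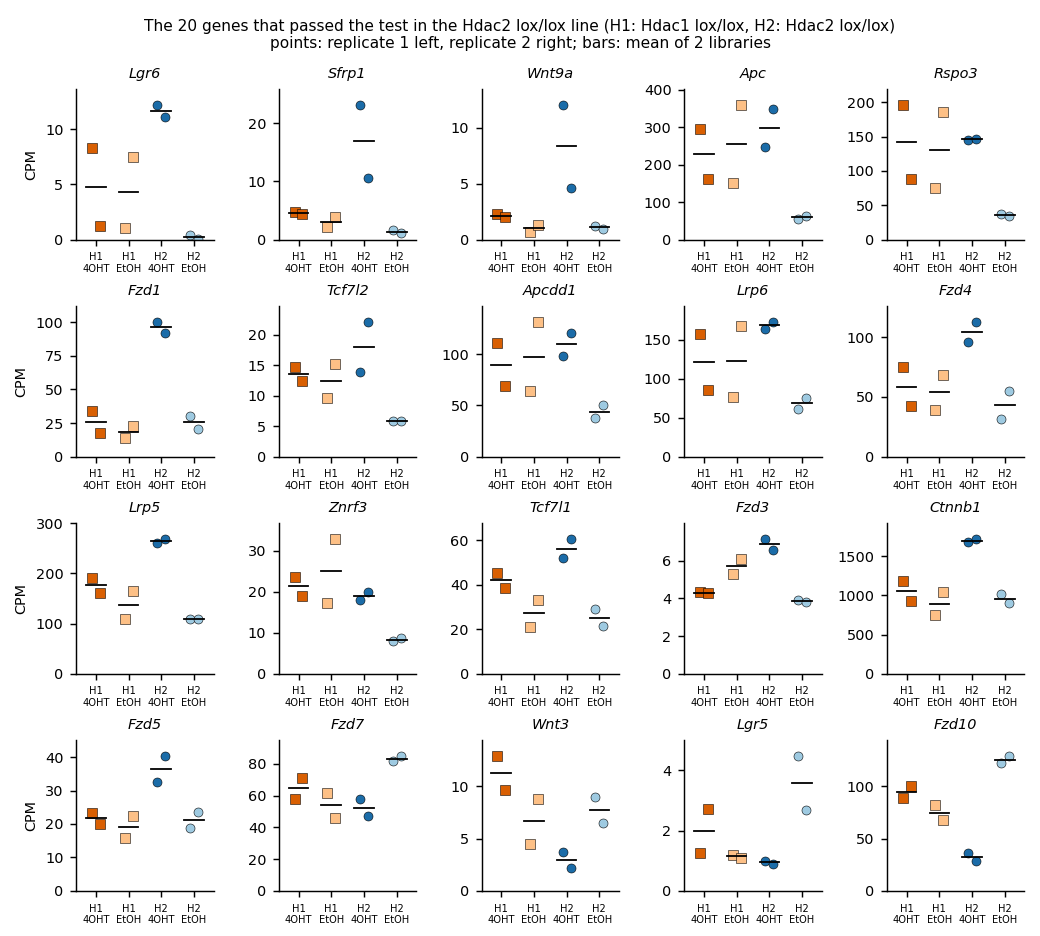
CPM of the 20 genes that passed the test in the Hdac2 line, in each library, with replicate 1 left, replicate 2 right and a bar at the mean of the 2 libraries; each panel has its own axis from 0. The Hdac2 line's groups are separate in all 20 panels, and in the Hdac1 line 4OHT replicate 1 is above 4OHT replicate 2, and EtOH replicate 2 above EtOH replicate 1, for all 16 genes that rose.

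In the Hdac1 line, 0 of the 45 genes passed the adjusted threshold between 4OHT and EtOH libraries, and so did 0 of all genes tested (0%). At an unadjusted p under 0.05 there were 2 of the 45, Tcf7l1 (0.63 ± 0.25) and Dkk3 (1.17 ± 0.47), both higher with 4OHT, and 947 of all genes (6.68%, with 4.21% higher and 2.47% lower). DESeq2 called 32 of all genes and 0 of the 45, and limma-voom called 0. With 4OHT, 11 of the 45 genes lay above both EtOH libraries and 4 below both, against 15.8% and 15.4% of all genes (31.2% in either direction). When replicate numbers were crossed within this line, an alternative added after the data were seen, 2 of the 45 passed among 858 genes.

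The difference between the lines in their 4OHT response was tested directly, as the Hdac1 line's log2 fold change minus that of the Hdac2 line. By edgeR it passed for 0 of the 45 genes and for 0.0282% of all genes (4 genes). Fzd10 came closest, at 2.31 ± 0.26 (95% interval 1.71 to 2.91, adjusted p = 0.054). At an unadjusted p under 0.05 there were 17 of the 45, of which 4 were higher in the Hdac1 line's response and 13 lower, against 28% of all genes (12.5% higher and 15.5% lower). The 4 were Fzd10, Wnt3 (2.14 ± 0.57), Fzd7 (0.93 ± 0.29) and Lgr5 (2.72 ± 0.68), the genes that fell in the Hdac2 line. The difference subtracts the Hdac2 line's response, taken from the same libraries, so a gene that fell there scores higher by construction. The match is therefore no separate support. DESeq2 called 11 of the 45 and limma-voom 0. Without EtOH replicate 1 of the Hdac1 line edgeR called 15, and without EtOH replicate 2 of that line it called 1. With replicate numbers crossed in the Hdac1 line, 24 of the 45 passed, 7 higher and 17 lower, among 5852 of all genes. Whether the difference passed therefore depended on the fit. Shares of all genes are not given for DESeq2, limma-voom or the fits without single libraries. Those counts are therefore no result about the Wnt genes in particular.

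Between the EtOH libraries, 8 of the 45 genes differed between the Hdac1 line and the Hdac2 line (17.8%, against 9.33% of all genes). Higher in the Hdac1 line were 2 genes, against 6.42% of all genes. Znrf3 had 17.2 and 32.8 CPM in the Hdac1 line, against 7.97 and 8.69 CPM in the Hdac2 line (1.59 ± 0.31, adjusted p = 0.031). Apc had 152 and 359 CPM in the Hdac1 line, against 55.6 and 62.6 CPM in the Hdac2 line (2.11 ± 0.44, adjusted p = 0.034). For both, EtOH replicate 2 of the Hdac1 line held the higher value of the pair.

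Lower in the Hdac1 line were 6 genes, against 2.91% of all genes. Rspo4 had 0.218 and 0.3001 CPM in the Hdac1 line, against 4.15 and 2.39 CPM in the Hdac2 line (-3.62 ± 0.51, adjusted p = 0.017). Wnt5a had 12.3 and 13.6 CPM in the Hdac1 line, against 55.8 and 56.6 CPM in the Hdac2 line (-2.12 ± 0.25, adjusted p = 0.014). Of the 6, Rspo4 and Dkk2 reached the count threshold for testing only in the 2 groups of the Hdac2 line, where they are high, and so entered the test only through that line. The counts of 8 and 6 include both, and their order between the lines is no support for a difference. In Wnt5a the replicates of each line agreed more closely than the lines did. The others were Lef1 (-1.64 ± 0.29, adjusted p = 0.025), Dkk1 (-1.89 ± 0.41, adjusted p = 0.034), Dkk2 (-2.22 ± 0.51, adjusted p = 0.041) and Fzd10 (-0.75 ± 0.18, adjusted p = 0.044). With 4OHT, Wnt5a, Rspo4, Lef1, Dkk1 and Dkk2 were again lower in both libraries of the Hdac1 line than in both of the Hdac2 line. Fzd10 ran the other way, higher in both 4OHT libraries of the Hdac1 line, and the lines overlapped for Znrf3 and Apc. The share of all genes without overlap between the 4OHT groups was not counted. In the EtOH libraries, 11 of the 45 genes lay above and 16 below in the Hdac1 line without overlap, against 30.3% and 29.9% of all genes (60.1% in either direction). Only Rspo4 and Wnt5a passed when either 4OHT library of the Hdac2 line was left out or when the 4 EtOH libraries were fitted alone, and 0 passed without either EtOH library of the Hdac2 line. Without EtOH replicate 2 of the Hdac1 line Lef1 and Wnt5a passed, and without its EtOH replicate 1 there were 16. In all of these fits the 8 genes ran the same way with an unadjusted p under 0.05. This comparison uses the same EtOH libraries of the Hdac2 line as the 4OHT comparison there.

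The genes that moved in the Hdac2 line also separated replicates of the same treatment in the Hdac1 line. All 16 that rose were higher in EtOH replicate 2 than in EtOH replicate 1 of the Hdac1 line, and all 16 were higher in its 4OHT replicate 1 than in its 4OHT replicate 2. The median log2 ratio of EtOH replicate 2 over 1 was 0.78 for the 16, against -0.01 for all genes tested. Examples are Lgr6, with a ratio of 2.63 between the EtOH and 2.61 between the 4OHT libraries (replicate 1 over 2), Rspo3 with 1.31 and 1.16, and Apc with 1.24 and 0.87. Of the 4 that fell, 3 were lower in EtOH replicate 2 than in 1 of the Hdac1 line and Wnt3 was not. Across all 14179 genes, the EtOH replicate ratio in the Hdac1 line and the 4OHT response in the Hdac2 line, which share no library, had a Pearson correlation of 0.65 and a Spearman correlation of 0.69. Over the 45 genes the values were 0.54 and 0.52, so the relation was not particular to the Wnt genes. How many of all genes that rose showed the same replicate order was not counted. Genes are not independent replicates, and the ratios share features of the transcripts such as length.

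Exon length moved with these values. The Spearman correlation of exon length was 0.43 with the 4OHT response in the Hdac2 line and 0.46 with the EtOH replicate ratio in the Hdac1 line, over 14122 genes. The 16 genes that rose had a median exon length of 6883 bases, the 4 that fell 3891, the other 25 tested genes 4137 and all genes 4182.5. Among all genes, those that rose in the Hdac2 line had a median of 6788 bases and those that fell 2992.5. With the length trend of each library removed, 16 of the 45 genes passed in the Hdac2 line, 13 higher and 3 lower. Fzd3, Fzd5, Lrp6, Apcdd1 and Wnt3 no longer passed, with log2 fold changes of -0.044, 0.47, 0.37, 0.44 and -1.15, and Sfrp2 was gained (1.68). Apc at 1.22 and Lrp5 at 0.68 still passed in that fit.

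**Figure D5:**
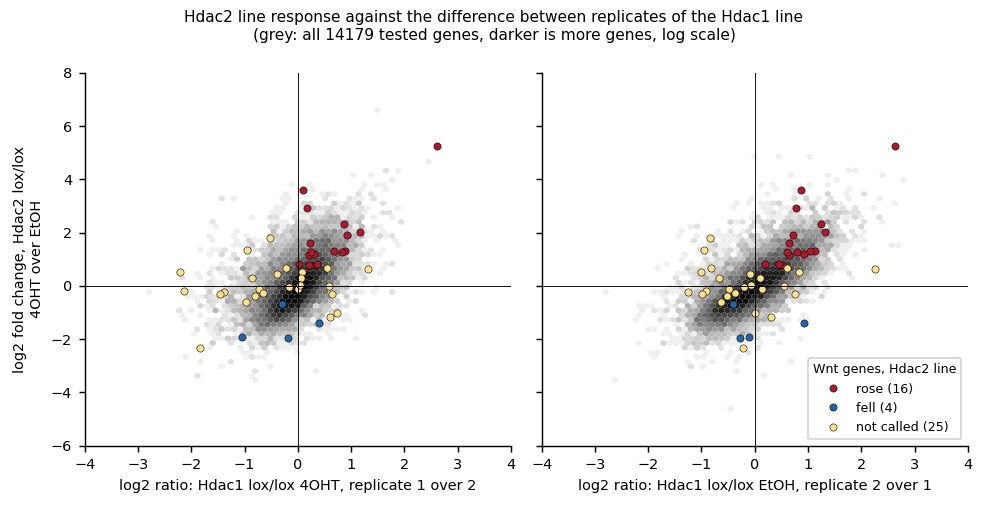
Log2 fold change of 4OHT over EtOH in the Hdac2 line (vertical) against the log2 ratio of 4OHT replicate 1 over 2 (left) and EtOH replicate 2 over 1 (right) of the Hdac1 line, with all tested genes in grey and the 45 Wnt genes as points. All 16 genes that rose lie right of 0 in both panels, and of the 4 that fell, 3 lie left of 0.

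Other genes of the pathway, outside the 62, were followed as 4 lists. Of 31 tested genes of the intracellular machinery, 7 rose and 1 fell in the Hdac2 line, with a median log2 fold change of 0.35. The counts in these lists stand against 18.9% of all genes that rose there and 17.2% that fell. Dvl3, a Dishevelled adaptor downstream of Frizzled, had 45.01 and 57.7 CPM with 4OHT, against 15.8 and 16.6 CPM with EtOH (1.66 ± 0.29, adjusted p = 0.01). Bcl9 and Bcl9l, which tether β-catenin to its co-activators, had log2 fold changes of 1.00 ± 0.23 and 1.61 ± 0.38, and Aes, a short Groucho-family co-repressor, of 0.90 ± 0.22. Of 14 tested secreted or surface modulators, 5 rose and none fell (median 0.86), led by the glypican Gpc4 (2.34 ± 0.30), Gpr124, an endothelial co-receptor for Wnt7 signals (1.43 ± 0.28), Trabd2b, a Wnt-cleaving protease (1.68 ± 0.38), and Kremen1, a DKK receptor (0.67 ± 0.20). Of 21 planar polarity and non-canonical genes, 7 rose and none fell (median 0.59), among them Daam1 (1.48 ± 0.23), Celsr2 (2.10 ± 0.35), Prickle2 (3.91 ± 0.67) and Prickle1 (0.91 ± 0.18).

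Known β-catenin targets outside the 62 moved in both directions in the Hdac2 line. Of 14 tested, 4 rose and 2 fell, against 18.9% and 17.2% of all genes, with a median log2 fold change of 0.56. Tbx3 had 78.4 and 98.4 CPM with 4OHT, against 27.0 and 24.5 CPM with EtOH (1.78 ± 0.26, adjusted p = 0.0087). Cyr61 had 608 and 456 CPM with 4OHT, against 190.4 and 79.9 CPM with EtOH (1.97 ± 0.41), and Cd44 had 272 and 278 CPM with 4OHT, against 166 and 132 CPM with EtOH (0.88 ± 0.22). Bambi, a pseudoreceptor that dampens TGF-β signals, had 51.9 and 57.5 CPM with 4OHT, against 111 and 132 CPM with EtOH and fell (-1.15 ± 0.27, adjusted p = 0.018). All of these respond to other pathways as well. In all 4 lists 0 genes passed the test in the Hdac1 line, where 0% of all genes did.

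Markers of further cell types were read in the Hdac2 line, where 18.9% of all genes rose and 17.2% fell. Of 8 pluripotent markers 2 were tested and none passed, and of 8 neuronal markers 3 were tested and none passed. Of 8 cardiomyocyte markers 5 were tested, 2 rose and 1 fell, with sums of 24.1 to 27.6 CPM with 4OHT and 15.9 to 30.9 CPM with EtOH in the Hdac2 line. Of 8 visceral endoderm markers 3 were tested and 2 rose, Foxa2 and Sox17, with sums of 218 to 231 CPM with 4OHT, against 48.6 to 53.3 CPM with EtOH in the Hdac2 line. Sox17, which is also an endothelial gene, made up most of these sums. The part of these cells in the Wnt gene changes was not tested. Of 9 paraxial mesoderm markers only Tcf15 was tested, and it fell. The summed CPM of the 62 Wnt genes was 3759 and 3792 in the 4OHT libraries of the Hdac2 line, against 2307 and 2216 in its EtOH libraries. In the Hdac1 line it was 3055 and 2400 in the 4OHT libraries, against 1973 and 2836 in the EtOH libraries. Ctnnb1 was the largest single part of this sum in every library, and a sum does not show how many of the 62 genes rose.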

How the data were processed

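The deposited table holds raw read counts per gene for 41128 genes, made by the authors, and all 8 of its columns matched a sample description. Per the labels' protocols, libraries were prepared from 200 ng of total RNA with a strand-specific Agilent kit and 15 cycles of amplification. Per the submitters' processing notes, the tools included Bowtie2 2.2.1 with SAMtools 0.1.19, and the genome was mm10. No source used here gives the counting program or strand setting. With strand unused, reads of overlapping opposite genes cannot be separated.

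Genes passed filterByExpr (14179 genes, 99.9% of counts). Of the 45 Wnt genes tested, 35 reached its threshold of 10 counts (0.687 CPM) in all 4 groups, and 4 in at most 1 group. TMM scaling and a robust quasi-likelihood fit (edgeR 4.0.16, R 4.3.3) used all 8 libraries with a mean per group. P-values were adjusted by Benjamini-Hochberg over all genes tested, at 0.05. SEs come from the F statistic. The scripts were tested on simulated counts. RPKM used GENCODE M21 exon lengths on GRCm38, in which all 62 genes were found. Intervals and floors cover counting error or library spread only. Alternatives were RLE scaling, no filter, DESeq2 1.42.0, limma-voom (limma 3.58.1), a replicate block, leaving out libraries and fitting 4 libraries alone. A crossed block and a fit with the length trend removed were added after seeing the data. The Wnt genes and the lists were chosen with earlier results of these data known. Every tested Wnt gene is named, with all libraries' values for those called in any comparison and for Ctnnb1, Axin2, Lef1 and Tcf7l2. From each pathway list up to 4 genes with the smallest adjusted p in the Hdac2 line are named.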

Additional observations from a re-analysis of the deposited data

How the results depend on the processing

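The count of genes called in the Hdac2 line was 20, and 15 with no filter, 16 with the length trend removed, 19 with limma-voom, 20 with RLE scaling, 21 with DESeq2, 26 with the 4 libraries alone, 29 with the crossed replicate block and 0 with the replicate block. Same-numbered libraries deviated from their group means with a correlation of 0.26 in the Hdac2 line and -0.69 in the Hdac1 line. The main fit did not take the numbers to pair the samples. These values do not settle whether libraries of the Hdac2 line, where the value was positive, were paired by number. The replicate block held a term for each line, which left fewer degrees of freedom for the spread. Leaving out single libraries gave 0 to 22. In every one of these fits the 20 kept their direction, except Fzd3 with the length trend removed (-0.044). In the Hdac1 line the count was 0, and 2 with the crossed replicate block. For the difference it was 0, and 6 with no filter, 11 with DESeq2, 24 with the crossed replicate block, 1 with the length trend removed, and 0 to 15 without single libraries. For the EtOH libraries it was 8, and 16 with DESeq2, 11 with the length trend removed, 2 with the 4 libraries alone, and 0 to 16 without single libraries. The shares of all genes called are not set beside these counts. A change in a count between fits is therefore no result about the Wnt genes in particular. The causes were not tested. At the depth of these libraries, 45 of the 62 genes had enough counts to be tested. Low depth and low expression cannot be told apart for the others.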
